A study of Mus musculus with 20 samples.

Results

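Cortical interneurons were followed through 10 genes: Gad1 and Gad2, which encode the enzymes of GABA synthesis, Lhx6, a transcription factor of one interneuron lineage, and Pvalb, Sst, Vip, Reln, Calb2, Npy and Cck, which mark interneuron subtypes. The genes were chosen by name, with earlier results of these data known. Each had exactly 1 entry among the 43346 genes of the count table, and all 10 passed the filter on low counts that left 19623 genes. Bulk RNA-seq came from cortex of mice that all carried the 5xFAD transgenes in the hemizygous state; in this model the Thy1 promoter drives mutant human amyloid precursor protein and presenilin in neurons. The 4 groups held 5 libraries each: Abca7 knockin (KI) at 10 months, KI at 3 months, control (wild-type Abca7) at 10 months and control at 3 months. The knockin allele is p.A693S in the mouse gene, KI animals may have been heterozygous or homozygous because the labels do not say which, and the protocol speaks of male littermates. Every animal carried 5xFAD, so ageing and the course of amyloid cannot be told apart in the comparison of ages. In bulk tissue, fewer cells of a type and less RNA per cell cannot be told apart either.

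Cortical interneurons are the local inhibitory neurons of the cortex and release GABA, which Gad1 and Gad2 make from glutamate. Most belong to classes that arise in different parts of the embryonic ganglionic eminences: Lhx6 is needed in the medial eminence lineage that gives the parvalbumin and somatostatin cells, while Vip cells and many Reln cells come from the caudal eminence. Parvalbumin and calretinin (Calb2) are calcium-binding proteins, Sst, Vip, Npy and Cck encode neuropeptides released beside GABA, and reelin is a secreted glycoprotein that signals through lipoprotein receptors. Several of these genes are not confined to interneurons: Cck is abundant in excitatory cortical neurons, Reln in Cajal-Retzius cells, Calb2 in parts of the thalamus, and Gad1 and Gad2 in striatal and reticular thalamic neurons.

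In the deposited table (mm10), Gad1 spans chromosome 2 from 70553072 to 70602014, Reln chromosome 5 from 21884454 to 22344702 and Calb2 chromosome 8 from 110142539 to 110168206. Vip lies on chromosome 10, from 5639218 to 5647614, as does Abca7.

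Promoter windows from RefSeq (GRCm38.p6, 250 bases before to 50 after a start) were held for 9 of the 10 genes, in 12 windows. The windows of Gad1 and Reln are printed because both genes were lower at 10 months than at 3 months, and that of Sst because it holds the cyclic AMP response element for which this promoter is known. Capitals mark matches, on either strand, to TATAAA (Gad1) or TGACGTCA (Sst), and the Reln window held neither.
Gad1, chr2:70561879-70562178, plus strand: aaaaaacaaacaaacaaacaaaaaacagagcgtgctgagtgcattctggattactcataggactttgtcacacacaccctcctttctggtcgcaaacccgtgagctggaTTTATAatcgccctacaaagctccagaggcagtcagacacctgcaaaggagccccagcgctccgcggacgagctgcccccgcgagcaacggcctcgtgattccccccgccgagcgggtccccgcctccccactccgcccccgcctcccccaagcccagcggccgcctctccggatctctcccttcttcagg
Reln, chr5:22344656-22344955, minus strand: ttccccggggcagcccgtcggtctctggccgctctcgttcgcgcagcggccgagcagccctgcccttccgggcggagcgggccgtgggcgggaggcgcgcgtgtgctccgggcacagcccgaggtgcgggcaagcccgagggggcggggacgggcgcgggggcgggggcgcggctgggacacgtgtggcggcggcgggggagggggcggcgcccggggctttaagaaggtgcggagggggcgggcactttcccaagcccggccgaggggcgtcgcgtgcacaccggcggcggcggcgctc
Sst, chr16:23890795-23891094, minus strand: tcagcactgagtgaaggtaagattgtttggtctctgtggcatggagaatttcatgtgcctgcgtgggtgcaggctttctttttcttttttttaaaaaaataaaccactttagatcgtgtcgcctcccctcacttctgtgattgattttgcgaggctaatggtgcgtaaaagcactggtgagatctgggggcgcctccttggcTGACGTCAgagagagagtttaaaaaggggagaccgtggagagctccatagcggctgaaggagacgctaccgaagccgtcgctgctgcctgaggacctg
TGACGTCA stood in 1.79% of all 32817 windows of this length and, among the member windows, in that of Sst; TATAAA stood in 13.6% of all windows. The Reln window was 80.7% G and C with 47 CpG dinucleotides and the Gad1 window 60.0% with 21, against medians of 52.7% and 7 over all windows. These matches describe the letters and do not show binding.

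Library totals ran from 42896149 to 57447015 counts. Each member had between 564 counts (Calb2, in control at 10 months) and 24873 counts (Gad1, in KI at 3 months) in its lowest and highest library, and relative counting error is smallest for the most abundant members. The labelled tissue carried its defining markers: 10 excitatory cortical markers summed to between 4059 and 5702 CPM (counts scaled to a common library size, with TMM factors) in every library. In replicate 5 of KI at 10 months, Xist reached 54206 counts while Ddx3y, on the Y chromosome, had 1 count, which goes against the stated male sex. In the other 19 libraries Xist had at most 218 counts. Abca7 itself averaged, at 10 months, 24.1 ± 4.08 CPM in KI against 27.04 ± 4.33 CPM in control, and at 3 months 25.4 ± 4.88 CPM in KI against 28.2 ± 1.38 CPM in control (SD, n = 5 each). Gene counts do not show the substitution itself. Whether libraries came from separate animals is not in the labels, and the p-values therefore describe variation among libraries.

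Levels of different genes were compared as CPM per kilobase of the deposited gene length. Cck led in all 4 groups and Lhx6 was lowest. In control at 3 months the order was Cck at 166 ± 6.05, Sst at 104.6 ± 9.31, Npy at 83.1 ± 8.80, Gad1 at 56.6 ± 4.28, Pvalb at 45.5 ± 6.13, Gad2 at 41.4 ± 1.92, Vip at 34.7 ± 2.14, Calb2 at 12.8 ± 1.92, Reln at 7.62 ± 1.41 and Lhx6 at 4.57 ± 0.114 CPM per kilobase (SD, n = 5 each). The ranges of Sst and Npy, of Gad1 and Pvalb, and of Pvalb and Gad2 overlapped in that group, so these neighbours were not separated, whereas Cck, Npy, Gad2, Vip, Calb2 and Reln each stood clear of the next lower gene. The deposited length covers 7639 bases for Gad1 and 19834 for Reln, and the order depends on how much of it the cortical transcripts use. Vip lay above Gad2 in both groups at 10 months and below it in both groups at 3 months, with overlapping ranges in all groups but control at 3 months.

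**Figure D1:**
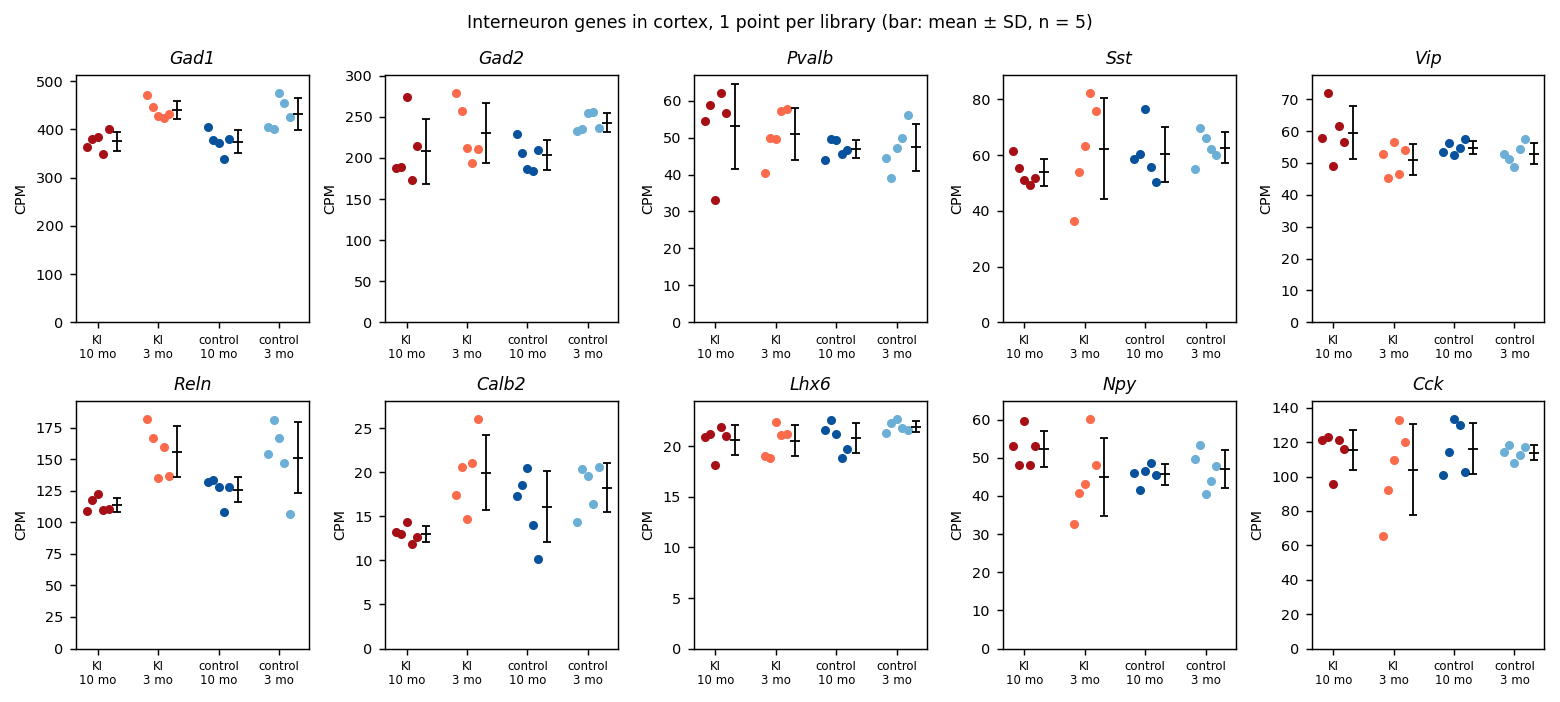
Level of each interneuron gene in CPM (y axis, from 0) in the 20 libraries, as 1 point per library in order of replicate number, with mean ± SD (n = 5) beside each group. Gad1, Reln and Calb2 show the 5 KI libraries at 10 months below the 5 KI libraries at 3 months.

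The comparison of ages asks how interneuron transcripts stand in old cortex with advanced amyloid against young cortex. Gad1, Reln and Calb2 were lower at 10 months, by 0.22 ± 0.04, 0.36 ± 0.08 and 0.40 ± 0.11 on the log2 scale averaged over genotypes (log2 fold changes -0.22, -0.36 and -0.40, ± SE). The peptide genes Sst, Vip, Npy and Cck, the calcium-binding protein gene Pvalb, and Lhx6 did not pass the test, and nor did Gad2. Thus 3 of 10 members passed edgeR's quasi-likelihood test with Benjamini-Hochberg adjustment at 0.05, all 3 lower, against a background of 12.1% of 19623 genes called in either direction and 3.95% called lower. Because the members were chosen with earlier results of these data known, such counts do not test enrichment. In KI the same 3 genes were called, where 8.06% of genes were called and 2.41% called lower; in control 0 members were called, where 4.07% of genes were called and 0.357% called lower. In control 3 members had an unadjusted p under 0.05, where 13.6% of genes did, and DESeq2 called 1 member and limma-voom 2. The median log2 fold change of the 10 members averaged over genotypes was -0.08, beside -0.003 over all genes tested.

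Gad1, whose enzyme makes most of the basal GABA pool, stood at 364, 379, 384, 348 and 402 CPM in KI at 10 months, against 471, 446, 427, 424 and 433 CPM in KI at 3 months. In control it stood at 405, 378, 371, 339 and 379.8 CPM at 10 months, against 404, 401, 476, 456 and 425 CPM at 3 months. The age groups did not overlap in KI, and in control 4 of the 5 libraries at 10 months lay below every library at 3 months. The log2 fold change was -0.23 ± 0.06 in KI (edgeR adjusted p = 0.0184; exact permutation p = 0.00794, 2-sided, the smallest that 5 against 5 libraries allow) and -0.21 ± 0.06 in control (edgeR adjusted p = 0.0553; exact permutation p = 0.0238). Groups that do not overlap were found for 7.17% of all genes in KI, 1.83% being lower at 10 months. The control value sat close to the threshold and passed it under RLE scaling, with a minimum mean of 1 CPM, in DESeq2 and in limma-voom, with adjusted p of 0.0489, 0.0459, 0.0125 and 0.0133. The KI call was lost without KI replicate 6 at 10 months (adjusted p = 0.0560).

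Gad2, whose enzyme is found at synaptic terminals, had values below 0 in both genotypes, with a wider spread. It stood at 188, 189, 274, 173 and 215 CPM in KI at 10 months, against 279, 257, 212, 193 and 211 CPM in KI at 3 months. In control it stood at 229, 206, 187, 184 and 209 CPM at 10 months, against 233, 235, 255, 256 and 236 CPM at 3 months. The control age groups did not overlap (exact permutation p = 0.00794), a pattern shared by 5.69% of all genes, 1.13% being lower at 10 months, but edgeR, which takes its spread from all 20 libraries, gave -0.26 ± 0.11 with an adjusted p of 0.276. Fitted to the 10 control libraries alone, the adjusted p was 0.0400. In KI the value was -0.15 ± 0.11 (adjusted p = 0.479), with replicate 5 at 10 months the highest of its group at 274 CPM. Averaged over genotypes the adjusted p was 0.0964, and 0.00937 without that library (-0.26 ± 0.06). With all libraries limma-voom called Gad2 lower in that comparison (-0.21 ± 0.05, adjusted p = 0.00706), and DESeq2 did not (-0.22 ± 0.08, 0.0642).

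Reln stood at 109, 118, 122, 110.1 and 110.2 CPM in KI at 10 months, against 182, 167, 135, 159.9 and 137 CPM in KI at 3 months. In control it stood at 132, 133, 128, 108 and 128 CPM at 10 months, against 154, 181, 166, 147 and 107 CPM at 3 months. The age groups did not overlap in KI; in control they did, since replicate 10 at 3 months, at 107 CPM, was the lowest of all 10 control libraries. The log2 fold change was -0.45 ± 0.11 in KI (edgeR adjusted p = 0.0101) and -0.27 ± 0.11 in control (adjusted p = 0.248), where leaving out that library gave -0.37 ± 0.09 (adjusted p = 0.0204). The KI call held without any 1 of the 20 libraries, with adjusted p from 0.00116 to 0.0320.

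Calb2 showed the steepest difference of the members, and from the lowest counts. It stood at 13.2, 12.9, 14.3, 11.9 and 12.6 CPM in KI at 10 months, against 17.4, 20.6, 14.7, 21.04 and 26.003 CPM in KI at 3 months, with a narrow gap between 14.3 and 14.7 CPM. In control it stood at 17.3, 18.5, 20.5, 14.0 and 10.2 CPM at 10 months, against 14.3, 20.4, 19.5, 16.4 and 20.6 CPM at 3 months, and these groups overlapped. The log2 fold change was -0.62 ± 0.16 in KI (edgeR adjusted p = 0.0186) and -0.18 ± 0.16 in control (adjusted p = 0.749). Without KI replicate 7 at 3 months, the library with the highest level, the KI value was -0.50 ± 0.16 and no longer passed (adjusted p = 0.0606).

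The other subtype genes gave small differences with age. Sst had a log2 fold change of -0.21 ± 0.15 in KI and -0.05 ± 0.15 in control. Its KI libraries at 3 months were the most scattered of any member and group, at 36.5, 53.8, 63.4, 82.4 and 75.7 CPM, beside 61.7, 55.4, 51.2, 49.3 and 51.8 CPM at 10 months. Pvalb had 0.06 ± 0.13 in KI and -0.01 ± 0.13 in control, with 95% intervals from -0.22 to 0.34 and from -0.29 to 0.27. Lhx6 had the tightest values of these genes, 0.01 ± 0.07 in KI and -0.08 ± 0.07 in control, with intervals from -0.14 to 0.15 and from -0.22 to 0.06. Intervals are the SE times the t quantile on the 16 residual degrees of freedom.

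Vip was the member with the largest positive value averaged over genotypes, 0.14 ± 0.06 (edgeR adjusted p = 0.145). It stood at 57.9, 72.0, 49.1, 61.6 and 56.7 CPM in KI at 10 months, against 52.8, 45.3, 56.4, 46.5 and 54.0 CPM in KI at 3 months, and 4 of the 5 older libraries lay above every younger one. Without KI replicate 5 at 10 months, the library at 49.1 CPM, the averaged value was 0.17 ± 0.05 and passed (adjusted p = 0.0434). Npy had 0.22 ± 0.11 in KI and -0.04 ± 0.12 in control, and Cck 0.15 ± 0.13 in KI and 0.03 ± 0.13 in control. Neither passed in either genotype.

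Markers of other cell types and tissue moved with age beside these genes. All 9 tested markers of plaque-associated microglia were called higher at 10 months (median log2 fold change 2.14 averaged over genotypes). Their sum ran from 1303 to 1741 CPM in KI at 10 months against 467 to 568 CPM in KI at 3 months, and from 1057 to 1385 CPM in control at 10 months against 427 to 529.5 CPM in control at 3 months. Of 7 astrocyte markers 3 were called higher and 0 lower (median 0.12). All 10 thalamic markers were tested, and 8 were called lower in the older cortex (median log2 fold change -0.76 averaged over genotypes). Their summed level ran from 93.5 to 118 CPM in KI at 10 months and from 140.0 to 291 CPM in KI at 3 months, and from 94.4 to 101 CPM in control at 10 months and from 98.4 to 213 CPM in control at 3 months. With the log2 of this sum as a covariate, an alternative chosen after seeing the data, 0 members were called for age. The averaged values were -0.14 ± 0.06 for Gad1 (edgeR adjusted p = 0.307), -0.39 ± 0.12 for Reln (0.0858) and -0.18 ± 0.17 for Calb2 (0.672). Without the covariate they were -0.22 ± 0.04, -0.36 ± 0.08 and -0.40 ± 0.11. The sums of the age groups do not overlap in KI, which limits the fit with the covariate. In control without replicates 8 and 10 at 3 months, the libraries of that group with over 50 counts of the thalamic gene Shox2, the log2 fold changes were -0.16 ± 0.07 for Gad1, -0.35 ± 0.10 for Reln and -0.08 ± 0.19 for Calb2. Of the 5 markers of Cajal-Retzius cells, 4 were tested and all 4 lay below 0. Lhx1 (-3.96 ± 0.53, edgeR adjusted p = 1.5e-05) and Nhlh2 (-1.18 ± 0.29, 0.0079) were called lower, at means of only 0.115 and 0.322 CPM. The more abundant Trp73 (mean 1.44 CPM, -0.51 ± 0.24, adjusted p = 0.190) and Ebf2 (mean 1.11 CPM, -0.13 ± 0.24, 0.796) were not called. The sum of the 5 markers was low throughout, from 1.09 to 4.59 CPM. Striatal markers lay below 0 at 9 of 10 with 0 called. The part of these cells in the results was not tested.

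**Figure D2:**
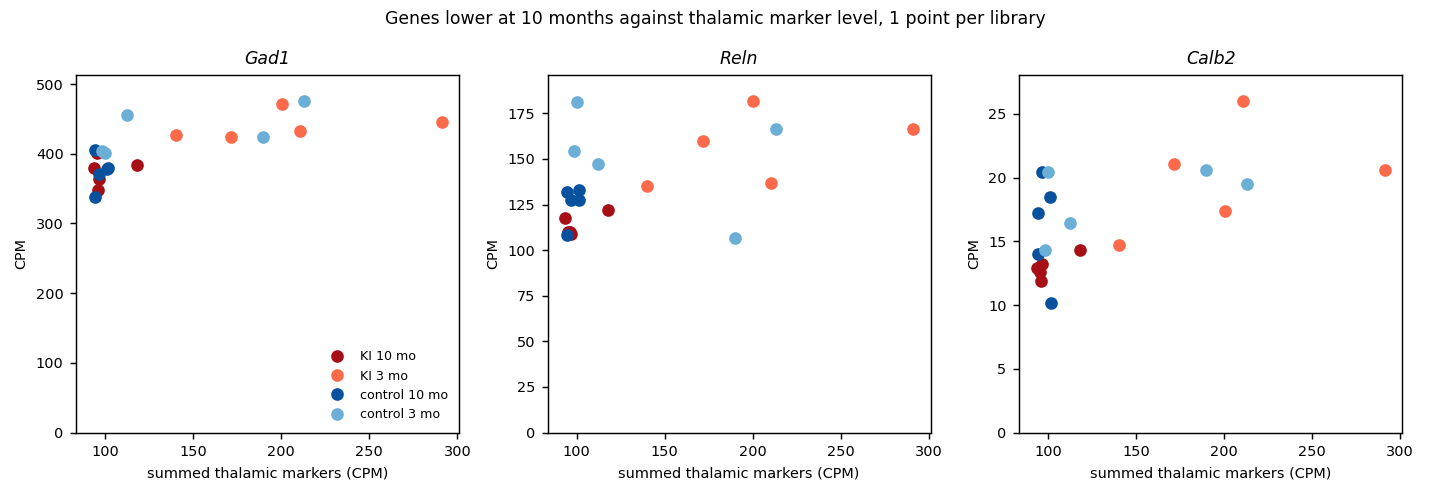
Level of Gad1, Reln and Calb2 in CPM (y axis, from 0) against the summed CPM of 10 thalamic markers (x axis) in the 20 libraries, coloured by group. All 10 libraries at 10 months lie at or below 118 CPM on the x axis, and the 5 KI libraries at 3 months lie at or above 140.0 CPM.

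The comparison of genotypes asks whether the knockin allele alters interneuron transcripts. It gave no call in any member: 0 of 10 passed at 10 months, at 3 months or averaged over ages, and 0 had an unadjusted p under 0.05 in any of the 3 comparisons, where 7.86%, 3.8% and 6.52% of all genes did. DESeq2 and limma-voom also called 0 members. The background was as sparse, with 0.0612% of genes called at 10 months, 0.0255% at 3 months and 0.0764% averaged over ages. The median member log2 fold change was -0.003 at 10 months and -0.03 at 3 months, beside 0.0002 and 0.005 over all genes.

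Averaged over ages, Gad1 had the narrowest interval of the members. At 10 months Gad1 averaged 375 ± 20.1 CPM in KI against 374 ± 23.9 CPM in control, and at 3 months 440.2 ± 19.2 CPM in KI against 432 ± 32.7 CPM in control (SD, n = 5 each). Its log2 fold change averaged over ages was 0.02 ± 0.04, with a 95% interval from -0.07 to 0.10. Lhx6 had -0.05 ± 0.05 with an interval from -0.15 to 0.05. Gad2 had -0.02 ± 0.08, with an interval from -0.19 to 0.14.

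Among the subtype genes, Npy and Calb2 had the largest genotype values, both at 10 months. Npy, at 53.0, 48.1, 59.6, 48.1 and 53.2 CPM in KI and 45.9, 41.5, 46.6, 48.7 and 45.4 CPM in control, had a log2 fold change of 0.20 ± 0.11. The exact permutation p was 0.0238 and edgeR's adjusted p was 0.709. Calb2, with 13.0 ± 0.906 CPM in KI against 16.1 ± 4.04 CPM in control (SD, n = 5 each), had -0.31 ± 0.16 (edgeR adjusted p = 0.666). Pvalb averaged 53.1 ± 11.5 CPM in KI and 46.9 ± 2.45 CPM in control at 10 months, with 4 of 5 KI libraries above every control library and replicate 5 below them all at 33.2 CPM. Its log2 fold change averaged over ages was 0.14 ± 0.09 (adjusted p = 0.863), the largest positive one of the members. Sst had -0.08 ± 0.11, Vip 0.03 ± 0.06, Reln -0.05 ± 0.08 and Cck -0.07 ± 0.09 averaged over ages.

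**Figure D3:**
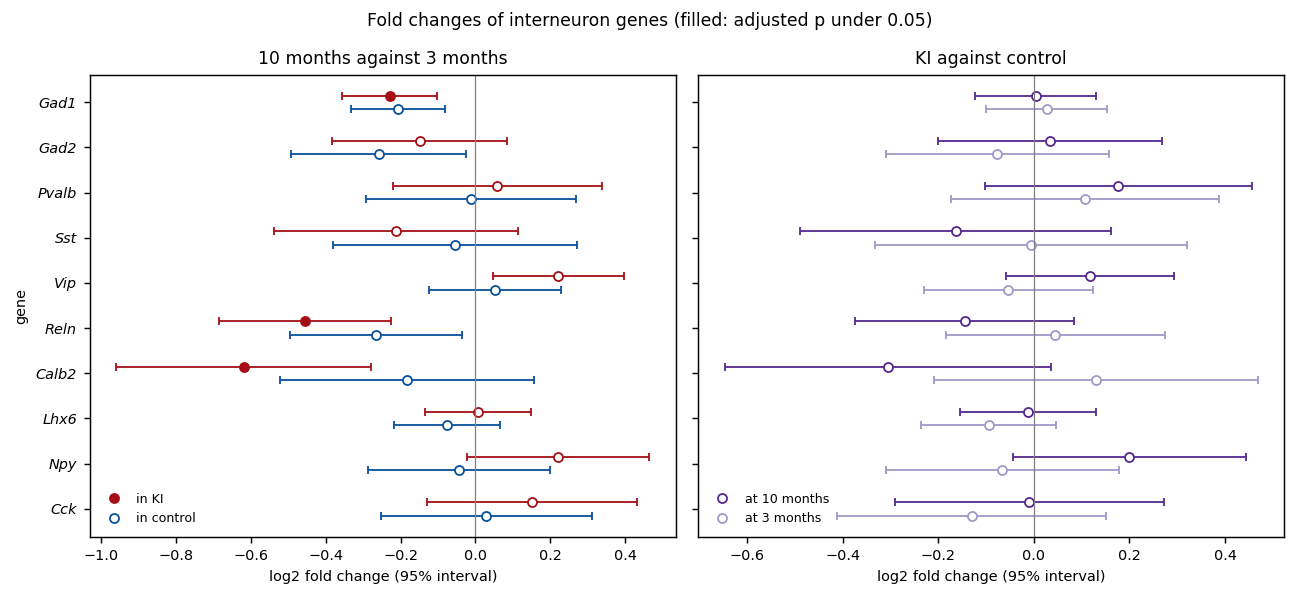
Log2 fold change with its 95% interval (x axis) for each interneuron gene (y axis), at left for 10 against 3 months in KI and in control, at right for KI against control at 10 and at 3 months; filled points passed the adjusted test. The only filled points are Gad1, Reln and Calb2 for age in KI, and every genotype interval includes 0.

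Although 3 genes were called for age in KI and 0 in control, the difference between genotypes in the age effect was not detectable for any member. Calb2 had the largest interaction, -0.44 ± 0.23 on the log2 scale (unadjusted p = 0.0688; edgeR adjusted p = 0.999), with an interval from -0.92 to 0.05. Npy had 0.27 ± 0.16, Reln -0.19 ± 0.15 and Gad1 -0.02 ± 0.08. No member had an unadjusted p under 0.05. Over all genes 0 (0%) were called for the interaction in edgeR, 4 in DESeq2 and 3 in limma-voom, with 4.5% at an unadjusted p under 0.05 in edgeR.

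The wider machinery of GABA and of interneuron classes is given by lists that do not include the members, each as log2 fold change for age averaged over genotypes, where 8.19% of all genes were called higher and 3.95% lower. Of 6 genes that load, take up or break down GABA, 1 was called lower and all 6 lay below 0 (median -0.21): Slc6a11, a GABA transporter gene of astrocytes, had -0.25 ± 0.07 (edgeR adjusted p = 0.0183). Of 14 transcription factors of interneuron lineages 1 was called higher and 1 lower. The lower was Prox1 at -0.32 ± 0.10 (adjusted p = 0.0308), a factor of caudal eminence interneurons and of hippocampal granule cells.

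Lists of genes linked to interneuron classes gave scattered calls. They were measured in bulk cortex, so a change cannot be placed in 1 class. In the parvalbumin cell list 2 of 8 genes were called, both lower. Kcnc2, a fast potassium channel gene, had -0.17 ± 0.05 and Erbb4, a neuregulin receptor gene, -0.33 ± 0.10. In the somatostatin cell list 1 of 9 was called, Grin3a, an NMDA receptor subunit gene, at -0.24 ± 0.07. In the list for Vip, Lamp5 and related cells 3 of 13 were called lower and 1 higher. Ndnf, which marks neurogliaform cells, had -0.37 ± 0.08 (adjusted p = 0.0018), the receptor tyrosine kinase gene Kit -0.19 ± 0.04, and Adarb2, a marker of the caudal lineage, -0.37 ± 0.09, whereas the chemokine gene Cxcl14 rose by 0.28 ± 0.05.

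The peptide receptor list held further calls. Of 11 receptors for the 4 peptides 3 were called lower and 0 higher (median -0.25). Vipr2, a receptor for Vip, had -1.17 ± 0.18 (adjusted p = 9.03e-05), Sstr2, a receptor for somatostatin, -0.27 ± 0.06 (0.00495), and Cckar, a receptor for Cck at a mean of 0.266 CPM, -1.55 ± 0.44 (0.0219). Of the 3 reelin receptor and adaptor genes, Lrp8 was called at -0.15 ± 0.05 (adjusted p = 0.0426), while Vldlr had -0.16 ± 0.06 and Dab1 0.05 ± 0.04. Thalamic markers were lower in the same comparison of ages, as given above, and their part in these list calls was not tested. In the genotype comparisons 0 genes of these lists were called.

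The 12 pan-neuronal genes had 0 called and a median of -0.02 averaged over genotypes, and with libraries scaled on their summed counts Gad1 (-0.20 ± 0.05, adjusted p = 0.0048) and Reln (-0.34 ± 0.08, 0.00446) remained called for age while Calb2 did not (-0.38 ± 0.13, 0.0503). Excitatory markers had 1 of 10 called, Neurod6, a transcription factor gene, at -0.20 ± 0.05.

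Within groups the members did not vary as one block. Log2 CPM was centred on each group's mean, and the 45 pairs were compared over 20 libraries by permuting libraries within groups (100000 resamples, 2-sided, adjusted over the 45 pairs). Of these pairs 7 passed, 3 positive and 4 negative. Gad1 and Gad2 varied together (Pearson's r = 0.67, permutation p = 0.00031, adjusted p = 0.00698; Spearman's rho = 0.80, permutation p = 1e-05, the smallest these resamples give; r = 0.69 without the 2 libraries farthest from the median of Gad1). Sst and Cck did so too (r = 0.85, permutation p = 0.00144, adjusted p = 0.0162; rho = 0.65, permutation p = 0.0115, adjusted p = 0.0862; r = 0.60 without the 2 farthest on Sst), with the rank test not passing.

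Gad2 and Cck ran opposite to each other. Their r was -0.85 (permutation p = 1e-05, adjusted p = 0.00045), with rho -0.88 (permutation p = 3e-05, adjusted p = 0.000675) and r = -0.84 without the 2 libraries farthest on Gad2. Gad1 and Cck gave r = -0.57 (permutation p = 0.00059, adjusted p = 0.00885; rho = -0.70, permutation p = 2e-04). Pvalb was negative with Gad2 (r = -0.74, permutation p = 0.00601, adjusted p = 0.0386) and positive with Cck (r = 0.63, permutation p = 0.00245, adjusted p = 0.022), but without the 2 farthest libraries these were -0.41 and 0.39. Pvalb and Reln gave r = -0.53 (permutation p = 0.00549, adjusted p = 0.0386), and -0.54 without the 2 farthest. For these 3 Pvalb pairs the adjusted rank test did not pass, with rho of -0.53, 0.52 and -0.56 and adjusted p of 0.124, 0.102 and 0.102. Sst and Pvalb, which mark the cells of one lineage, gave 0.39 and did not pass.

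**Figure D4:**
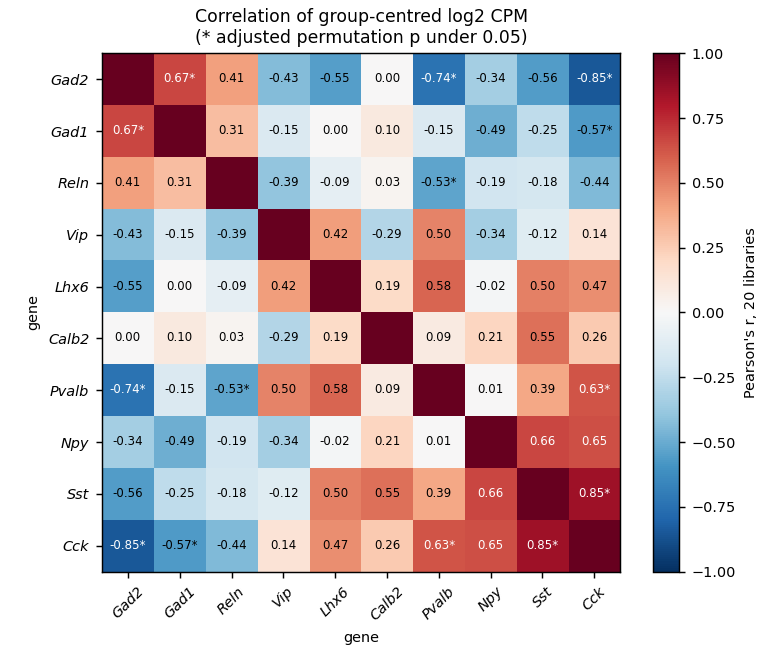
Pearson's r between the group-centred log2 CPM of each pair of interneuron genes over 20 libraries (colour, from -1 in blue to 1 in red), with * for adjusted permutation p under 0.05. Gad2, Gad1 and Reln form one positive corner and Sst, Npy, Cck and Pvalb lie mostly negative to them.

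The members were also set against the balance of long and short genes. For each library the balance of long against short genes was taken as the median log2 CPM, centred per gene, of 4638 genes over 5000 bases minus that of 446 genes under 1000 bases, all with a mean of at least 5 CPM and none of them members. This balance, defined after the data were seen, ran from -0.19 to -0.02 in KI at 10 months and from -0.13 to 0.39 in KI at 3 months, and from -0.18 to 0.08 in control at 10 months and from -0.01 to 0.18 in control at 3 months. The highest library was KI replicate 3 at 3 months at 0.39, which also held the lowest Sst, Npy and Cck values of its group and the highest Gad1, Gad2 and Reln values. Within groups the balance correlated negatively with the shortest members. Cck (685 bases) gave r = -0.80 (permutation p = 0.00261, adjusted over 10 genes p = 0.013; rho = -0.79, permutation p = 0.00225; r = -0.63 without the 2 farthest libraries). Sst (599 bases) gave r = -0.80 (permutation p = 0.00193, adjusted p = 0.013; rho = -0.64, permutation p = 0.0134; r = -0.62 without the 2 farthest). Gad1 (7639 bases) gave r = 0.51 (permutation p = 0.0146, adjusted p = 0.0487; rho = 0.55, permutation p = 0.0161; r = 0.46 without the 2 farthest). Gad2, Reln and Npy gave 0.53, 0.50 and -0.63 with adjusted p of 0.0585, 0.0546 and 0.0546 by permutation. Their rho of 0.59, 0.51 and -0.55 passed the rank test, with adjusted permutation p of 0.0402, 0.0492 and 0.0446. For these genes r was 0.38, 0.35 and -0.42 without the 2 farthest libraries. Calb2, Pvalb, Lhx6 and Vip gave -0.44, -0.26, -0.18 and -0.05 and did not pass, with adjusted p of 0.174, 0.312, 0.597 and 0.849 by permutation. Without the 2 farthest libraries Calb2, Pvalb, Lhx6 and Vip gave -0.33, 0.01, 0.04 and -0.08.

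With this balance as a covariate, 4 members were called lower at 10 months averaged over genotypes: Gad1 (-0.16 ± 0.04, adjusted p = 0.0145), Reln (-0.24 ± 0.08, 0.0473), Calb2 (-0.56 ± 0.13, 0.00503) and, unlike in the fit without it, Sst (-0.39 ± 0.08, 0.00234). In KI alone Sst (-0.51 ± 0.11, adjusted p = 0.00504) and Calb2 (-0.80 ± 0.17, 0.00448) were called, and Gad1 (-0.16 ± 0.06, 0.0805) and Reln (-0.31 ± 0.11, 0.0782) were not. What sets the balance was not tested.

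**Figure D5:**
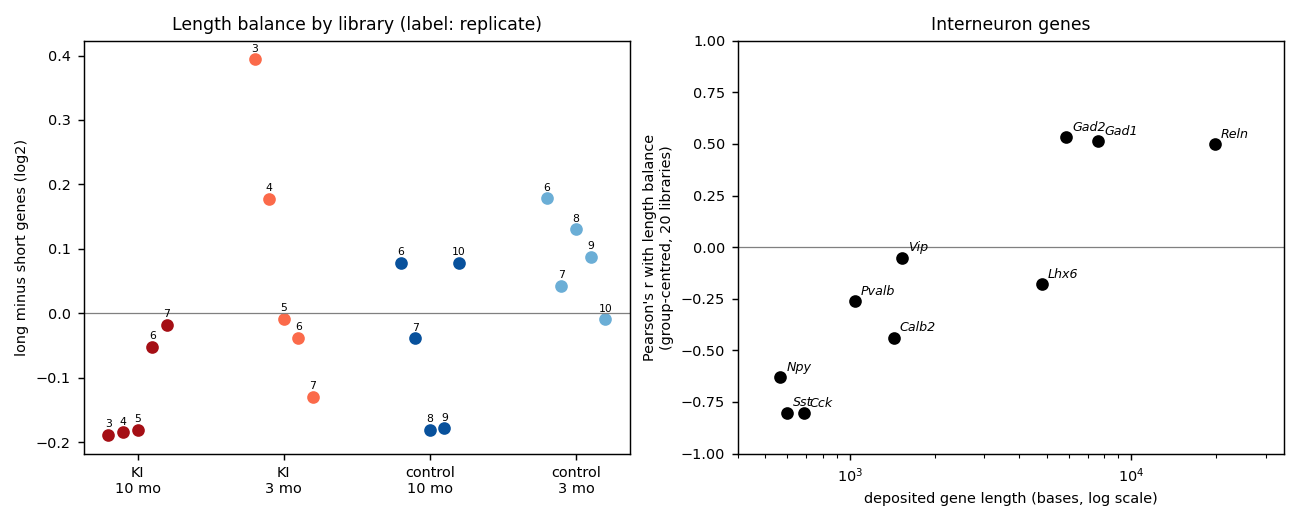
At left, the balance of long against short genes (y axis, log2) in each library, labelled by replicate number, by group; at right, Pearson's r of each interneuron gene with that balance within groups over 20 libraries (y axis) against the deposited gene length (x axis, log scale). The 3 members under 1000 bases, Npy, Sst and Cck, lie at -0.63, -0.80 and -0.80, and the 3 over 5000 bases, Gad2, Gad1 and Reln, at 0.53, 0.51 and 0.50.

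The spread of the members within groups was above that of other genes of like level, except in control at 10 months. Their median coefficient of variation was 9.04% in KI at 10 months, 14.7% in KI at 3 months, 7.62% in control at 10 months and 8.23% in control at 3 months. Over 8627 genes in the same range of levels the medians were 7.99%, 11.4%, 8.75% and 6.39%.

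For the members called for age, and for Gad2, the 3 genes most like each were found by Pearson's r of group-centred log2 CPM over 20 libraries among 11560 genes with a mean of at least 5 CPM, as a description. For Reln they were Ndnf (0.82), Cmtm4 (0.78) and Abca9 (0.76). For Gad2 they were Gabrg1 (0.94), a GABA receptor subunit gene, N4bp2 (0.93) and Kcna4 (0.93), a potassium channel gene. For Gad1 they were Lrpprc (0.80), Zfp449 (0.78) and Plagl1 (0.78), and for Calb2 Crym (0.79), Agt (0.78) and Ctbp2 (0.76). Gad2 lay farthest from its group mean in KI replicate 5 at 10 months (0.42) and KI replicate 3 at 3 months (0.29). Its likeness without these libraries was not computed.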

How the data were processed

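Cortex RNA was measured as bulk RNA-seq in 20 libraries. Raw gene counts were deposited by the authors in 1 table with coordinates, symbols and gene lengths. Per the submitters' processing notes the genome was mm10; aligner, counting tool, strandedness and gene models are not given in the sources used here. Samples were grouped by their labels. Counts were tested in edgeR 4.0.16 (R 4.3.3): filterByExpr, TMM scaling, robust quasi-likelihood F tests on 4 group means over all 20 libraries, 7 contrasts, Benjamini-Hochberg adjustment over 19623 genes, calls at 0.05. Log2 fold changes carry the SE of that model. CPM of single genes were compared by exact permutation over 252 assignments. The members and lists were chosen with earlier results of these data known. The genes named are all members, the called genes of each list (up to 4 of smallest p, otherwise values for some of smallest p) and the likeness genes. Uncalled genes of the reelin and Cajal-Retzius lists are named too. Clec7a, with more than 1 entry, was left out of its list, and Drd1 was matched as Drd1a. The 7 contrasts of the members were recomputed with DESeq2 1.42.0, with limma-voom (limma 3.58.1), under RLE or pan-neuronal scaling, unfiltered or with at least 1 CPM on average, on the compared libraries alone (the 4 contrasts of 2 groups), with a replicate block and without each library; 4 further alternatives were chosen after seeing the data. The test was tried on simulated data. No pair of libraries of the same group agreed within sampling noise (chi-square per degree of freedom at least 10.7). The pairs, likeness and order of levels had no such alternatives. Results of some single genes of these lists are not reported here.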

Additional observations from a re-analysis of the deposited data

Results flagged for a closer look

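In 4 of 40 sets of 5 libraries (10 genes in 4 groups) 1 library lay far from the others by Dixon's criterion, where chance gives about 1 in 20. Replicate 5 of KI at 10 months, the library with high Xist, was low in 3 of them: Pvalb at 33.2 CPM against 54.5 to 62.1 CPM in the other 4 libraries, Cck at 95.5 CPM against 116 to 123 CPM, and Lhx6 at 18.1 CPM against 20.9 to 21.9 CPM. The same library held the highest summed level of hippocampal markers of its group, 293 CPM, and the lowest of excitatory cortical markers, 4059 CPM. Replicate 9 of control at 10 months was low in Reln, at 108 CPM against 128 to 133 CPM.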

How the results depend on the processing

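No member was called for genotype or for the interaction under any alternative run. For age in control, against 0 called members, 1 was called under RLE scaling, with a minimum mean of 1 CPM, in DESeq2, with only the compared libraries and with replicate 3 of KI at 3 months and replicate 5 of KI at 10 months left out together, and 2 in limma-voom; leaving out single libraries gave 0 to 1. For age in KI, against 3, the thalamic covariate gave 0 and single libraries gave 2 to 4. For age averaged over genotypes, against 3, limma-voom gave 4 (Gad2 added), the thalamic covariate gave 0, the 2 KI libraries left out together gave 5 (Gad2 and Vip added), and single libraries gave 3 to 5. Sharing a replicate number did not make libraries alike: r exceeded 0.1 in 3 of 18 such pairs, and only 1 of 20 libraries correlated best with its own number. With the replicate block 0, 2 and 3 members were called for age in control, in KI and averaged, Gad1 being lost in KI (adjusted p = 0.0744). Of 2150 single member values under an alternative, 12 lost and 21 gained a call, and 0 called values reversed. Another 21, uncalled in both fits, changed sign with a shift of at least the SE of the main fit. The remaining 2096 stayed called or uncalled as before, with the same sign or, if uncalled, a shift under that SE. The cause of these differences was not tested. Strandedness is unknown, so reads of antisense genes within Gad1 and Reln, at most 18 and 10 counts, cannot be told apart from theirs. Every member had at least 564 counts in each library.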
